A study of Homo sapiens with 3 samples.

Results

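The genes of the proteasome were followed in LNCaP cells, an established human prostate cancer line that responds to androgens. The set holds 38 named subunit and activator genes of the 58884 gene rows in the count table, and each was found by matching its Ensembl identifier to its symbol. It was split into 5 immunoproteasome members (PSMB8, PSMB9, PSMB10, PSME1 and PSME2) and 33 other subunits. LNCaP cells had grown for 24 h in complete medium and were then kept for 72 h in serum-free medium with 2% fetal bovine serum, 50% of it conditioned medium (CM). The CM was PPAT-CM (marked tumor in the labels), PVAT-CM (marked normal) or control-CM. PPAT is periprostatic adipose tissue in the series title, the labels do not expand PVAT, and they do not say how many donors stood behind a medium. There was 1 library for each medium, so no difference below has a replicate check and no test was possible.

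The proteasome is a barrel-shaped protease that breaks down proteins tagged with ubiquitin. Its core particle is made of stacked rings of alpha and beta subunits, and the regulatory particle on its ends unfolds substrates with a ring of ATPases. In cells exposed to interferon gamma, the inducible subunits encoded by PSMB8, PSMB9 and PSMB10 take the places of the constitutive catalytic subunits of PSMB5, PSMB6 and PSMB7, which favours peptides that fit class I molecules. PSME1 and PSME2 encode the subunits of the PA28 cap, an activator that is also raised by interferon gamma.

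The sequences around the starts of these genes are shown first because interferon-inducible genes are known to carry interferon-stimulated elements, of which the core is GAAA, NN (any bases) and GAAA again in a row. Of the 38 genes, 33 had at least 1 window in the RefSeq promoter table (GRCh38.p14), from 250 bases before to 50 after a transcript start. PSMA7, PSMB1, PSMB6, PSMB7 and PSMD4 had none there. Capitals mark matches to the core on either strand, and in the TAP1 stretch the last capitals mark a match to the kappa B consensus, the binding motif of NF-kB.
PSMB8 (second start), chr6:32844038-32844067, minus strand: cccttcgatctgtggcTTTCGCTTTCactt
PSMB10, chr16:67936851-67936910, minus strand: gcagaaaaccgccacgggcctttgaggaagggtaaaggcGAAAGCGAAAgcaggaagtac
PSME1, chr14:24136187-24136215, plus strand: gcgccctaccgcTTTCGCTTTCccttcgc
PSME2, chr14:24146611-24146670, minus strand: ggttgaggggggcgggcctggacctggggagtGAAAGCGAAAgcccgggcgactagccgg
PSMB9, chr6:32854132-32854191, plus strand: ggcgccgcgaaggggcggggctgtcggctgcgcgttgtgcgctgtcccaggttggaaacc
TAP1, chr6:32853759-32853844, minus strand: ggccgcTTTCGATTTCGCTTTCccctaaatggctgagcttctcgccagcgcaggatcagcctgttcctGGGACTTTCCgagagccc
PSMB5 (first start), chr14:23035221-23035280, minus strand: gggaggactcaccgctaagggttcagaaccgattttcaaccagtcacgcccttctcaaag
PSMB4, chr1:151399483-151399542, plus strand: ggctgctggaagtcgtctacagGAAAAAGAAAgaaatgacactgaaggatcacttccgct

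The core motif lay in windows of 4 of the 5 immunoproteasome members and of 2 of the 28 other subunits with a window, against 3.57% of all 35116 windows in the table. Those member counts are by gene, and by window 6 of the 40 member windows held the core. The exceptions among the other subunits were PSMA4 and PSMB4, whose stretch is printed because its match has other letters at the open positions. In PSMB10, PSME1, PSME2 and the second start of PSMB8 the match read GAAAGCGAAA or its reverse complement and lay within 28 bases of the start. The first PSMB8 window and the PSMB9 window held no match. By their RefSeq starts, PSMB9 lies head to head with TAP1, which encodes a subunit of the peptide transporter. The TAP1 window held 2 overlapping matches whose nearest end was 354 bases before that PSMB9 start. The GENCODE span of PSMB9, used for exon lengths, starts earlier at 32844136 and contains TAP1. A match describes letters in a window, and no binding was measured.

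**Figure D1:**
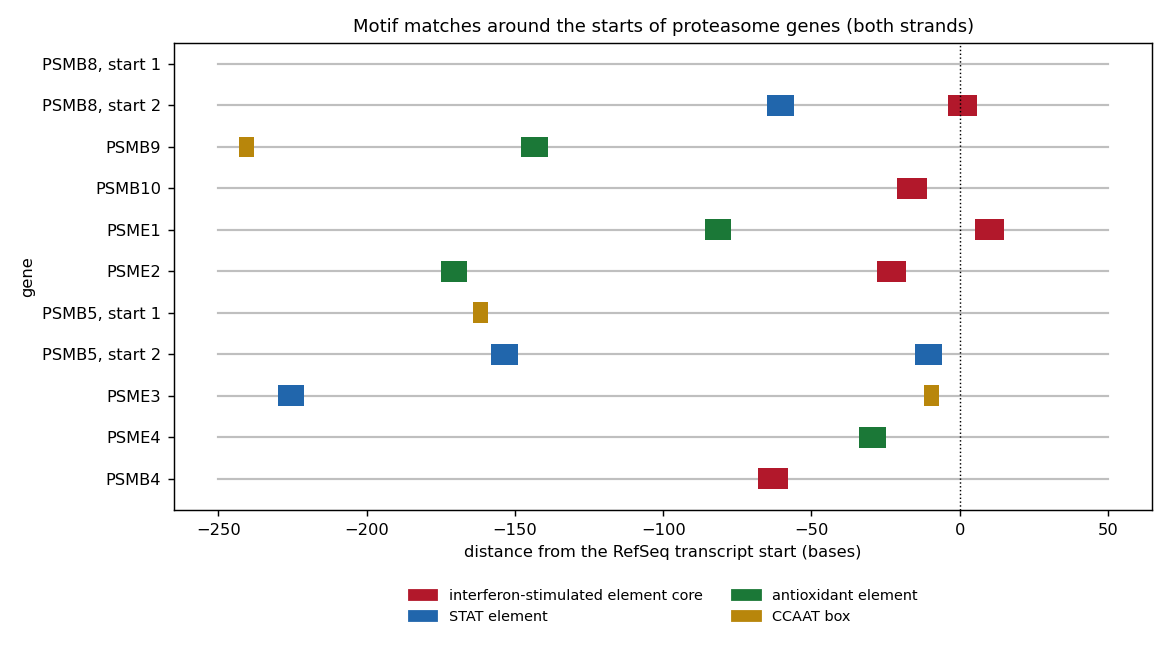
Positions of motif matches (coloured boxes, both strands) from 250 bases before to 50 bases after the RefSeq transcript starts of the immunoproteasome genes and of PSMB5, PSME3, PSME4 and PSMB4. The x axis is the distance from the start in bases, and the interferon-stimulated core (red) is present in PSMB8, PSMB10, PSME1, PSME2 and PSMB4 and not in the windows of PSMB9, PSMB5, PSME3 and PSME4.

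Of the other motifs searched on both strands, the antioxidant element TGACNNNGC was in windows of 8 of 28 other subunits and 3 of 5 immunoproteasome members, against 13.3% of all windows. CCAAT was in windows of 16 of 28 and 1 of 5, against 34.6%. The STAT element TTCNNNGAA was in windows of 6 of 28 and 1 of 5, against 7.66%, and the kappa B consensus was in windows of 1 of 28 and none of the 5, against 5.91%. In PSMB8 and PSMB5 the STAT matches lay at the second start. None of these matches overlapped one to the interferon-stimulated core in the genes drawn. Some genes have several windows, so that more letters were searched for them. By window, the antioxidant element was in 11 of the 40 member windows, CCAAT in 17, the STAT element in 7 and the kappa B consensus in 1.

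Library totals lay between 14174241 and 16965584 counts, and genes of the mitochondrial chromosome took 15.5% of them in PPAT-CM, 21.1% in PVAT-CM and 30.8% in control-CM. Counts were scaled with TMM factors and are given as scaled CPM, in which a count is set against the scaled size of its library. A ratio is that of scaled counts, with a 95% interval that covers counting error only, and a gene is called higher or lower where its log2 ratio passed 1.5-fold. All 9 luminal prostate markers had counts in each library, from 348 for KLK2 to 17615 for FOLH1. The androgen-regulated marker KLK3 had 4577 counts in PPAT-CM, 9982 in PVAT-CM and 10286 in control-CM, and the part of that difference in the results below was not tested. The pan-leukocyte marker PTPRC and the adipocyte markers ADIPOQ, FABP4 and LEP were at 0 in every library. The other members of those marker lists are given beside the immunoproteasome results.

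The 3 inducible catalytic genes were scarce in control-CM and PVAT-CM and far more abundant in PPAT-CM. PSMB8, the inducible chymotrypsin-like subunit (ENSG00000204264, chromosome 6, 32840717 to 32844703, GENCODE 29 on GRCh38), had 107 counts in PPAT-CM, 12 in PVAT-CM and 6 in control-CM. PSMB9, the inducible counterpart of the caspase-like subunit (ENSG00000240065, chromosome 6, 32844136 to 32859585), had 133 counts in PPAT-CM, 7 in PVAT-CM and 4 in control-CM. PSMB10, the inducible trypsin-like subunit (ENSG00000205220, chromosome 16, 67934502 to 67937087), had 163 counts in PPAT-CM, 42 in PVAT-CM and 30 in control-CM. The PPAT-CM library was the high one for each gene, and the PVAT-CM library had a few more counts than the control-CM library.

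Against control-CM, the ratio of PPAT-CM was 14.7 for PSMB8 (6.54 to 41.0), 27.4 for PSMB9 (10.5 to 102) and 4.48 for PSMB10 (3.02 to 6.86). Against PVAT-CM it was 6.91 for PSMB8 (3.80 to 13.8), 14.7 for PSMB9 (6.95 to 37.4) and 3.01 for PSMB10 (2.13 to 4.33). For PVAT-CM over control-CM the ratios were 2.13 for PSMB8 (0.739 to 6.91), 1.86 for PSMB9 (0.473 to 8.67) and 1.49 for PSMB10 (0.910 to 2.46), so that each of these intervals included 1. Taken gene by gene, a difference between PVAT-CM and control-CM was not detectable at this depth. The comparisons share libraries, so their values are not independent.

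The PA28 genes were abundant in every library and differed less between libraries. PSME1 (ENSG00000092010, chromosome 14, 24136158 to 24138967) had 3380 counts in PPAT-CM, 1497 in PVAT-CM and 1265 in control-CM. Its ratio was 2.20 for PPAT-CM over control-CM (2.07 to 2.35) and 1.26 for PVAT-CM over control-CM (1.17 to 1.36). PSME2 (ENSG00000100911, chromosome 14, 24143362 to 24147570) had 2822 counts in PPAT-CM, 1221 in PVAT-CM and 1617 in control-CM, so that here control-CM lay between the adipose media. Its ratio was 1.44 for PPAT-CM over control-CM (1.35 to 1.53), which is under the 1.5-fold threshold, and 0.803 for PVAT-CM over control-CM (0.745 to 0.866). Against PVAT-CM the PPAT-CM ratios of the pair were nearly equal, 1.75 for PSME1 (1.65 to 1.86) and 1.79 for PSME2 (1.68 to 1.92).

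**Figure D2:**
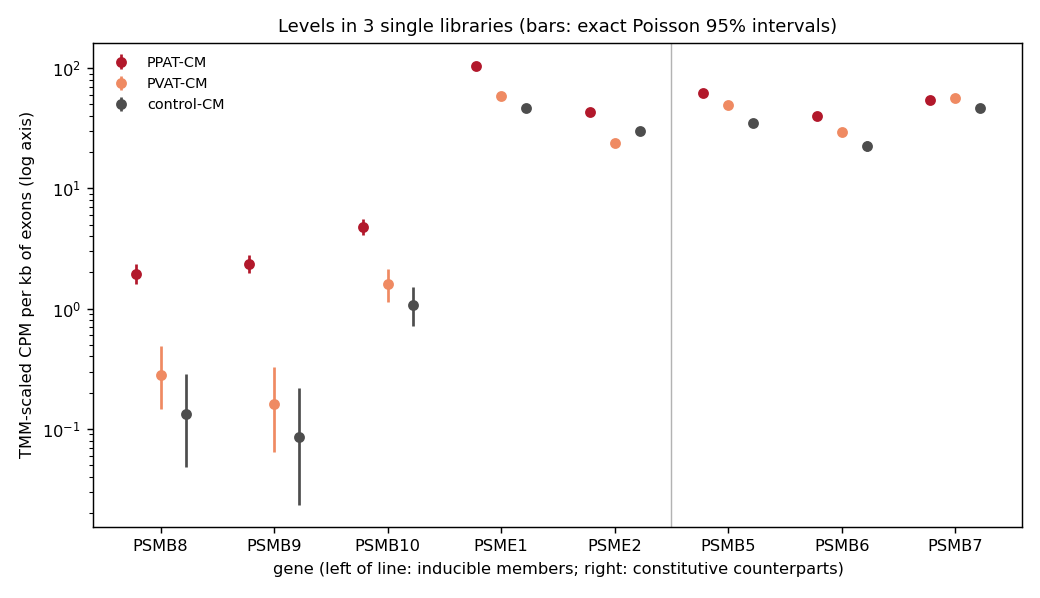
Level of the 5 immunoproteasome members and of the 3 constitutive counterparts (x axis) in TMM-scaled CPM per kilobase of merged exons (y axis, log scale) in the 3 single libraries, with exact Poisson 95% intervals. PSMB8, PSMB9 and PSMB10 lie between 1.94 and 4.78 in PPAT-CM and between 0.0858 and 1.07 in control-CM, below all of the other genes shown in each library.

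Levels per length place the inducible catalytic genes low even in PPAT-CM. Per kilobase of merged GENCODE exons, PSMB8 had 1.94 scaled CPM in PPAT-CM, 0.281 in PVAT-CM and 0.132 in control-CM. Its counterpart PSMB5 had 62.1 in PPAT-CM, 49.7 in PVAT-CM and 34.9 in control-CM on the same scale. PSME1 stood at the other end of the immunoproteasome members, with 103 scaled CPM per kilobase in PPAT-CM, 59.0 in PVAT-CM and 46.8 in control-CM. Merged exons include parts that few transcripts use, so these levels are approximate.

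The constitutive counterparts were not lower where the inducible genes were higher. PSMB5, the chymotrypsin-like subunit, had 2016 counts in PPAT-CM, 1251 in PVAT-CM and 935 in control-CM, a PPAT-CM over control-CM ratio of 1.78 (1.64 to 1.92). PSMB6, the caspase-like subunit, had 1063 counts in PPAT-CM, 606 in PVAT-CM and 494 in control-CM, a ratio of 1.77 (1.59 to 1.98). PSMB7, the trypsin-like subunit, had 1768 counts in PPAT-CM, 1440 in PVAT-CM and 1255 in control-CM, a ratio of 1.16 that is not called. For PVAT-CM over control-CM the ratios were 1.42 for PSMB5, 1.31 for PSMB6 and 1.22 for PSMB7, none of them called.

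The share of the inducible subunit in the summed counts of its pair does not depend on the scaling between libraries. PSMB8 made up 5.04% of PSMB8 and PSMB5 counts in PPAT-CM (4.15 to 6.06, exact Clopper-Pearson 95% interval), 0.950% in PVAT-CM (0.492 to 1.65) and 0.638% in control-CM (0.234 to 1.38). PSMB9 made up 11.1% of PSMB9 and PSMB6 counts in PPAT-CM (9.39 to 13.0), 1.14% in PVAT-CM (0.460 to 2.34) and 0.803% in control-CM (0.219 to 2.04). PSMB10 made up 8.44% of PSMB10 and PSMB7 counts in PPAT-CM (7.24 to 9.77), 2.83% in PVAT-CM (2.05 to 3.81) and 2.33% in control-CM (1.58 to 3.32). Gene length moves these shares: per kilobase of merged exons the PPAT-CM share was 3.03% for PSMB8, 5.57% for PSMB9 and 8.17% for PSMB10, so that PSMB10 and not PSMB9 had the highest. In each pair the PPAT-CM interval from counts lay above those of both other libraries, and the intervals of PVAT-CM and control-CM overlapped.

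The inducible to constitutive count ratio in PPAT-CM was 8.27 times that in control-CM for PSMB8 and PSMB5 (3.66 to 23.1), 15.5 times for PSMB9 and PSMB6 (5.84 to 57.8) and 3.86 times for PSMB10 and PSMB7 (2.58 to 5.94). Gene length cancels in these values. Over all 3 pairs the inducible genes held 7.68% of the counts in PPAT-CM (6.97 to 8.43), 1.82% in PVAT-CM (1.39 to 2.33) and 1.47% in control-CM (1.05 to 1.99). The constitutive transcripts were the large majority in each library. For PVAT-CM over control-CM the pooled ratio of ratios was 1.24 (0.817 to 1.91), and for PPAT-CM over PVAT-CM it was 4.49 (3.41 to 6.00). In bulk samples a small fraction of cells with high levels and a low level in all cells cannot be told apart.

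**Figure D3:**
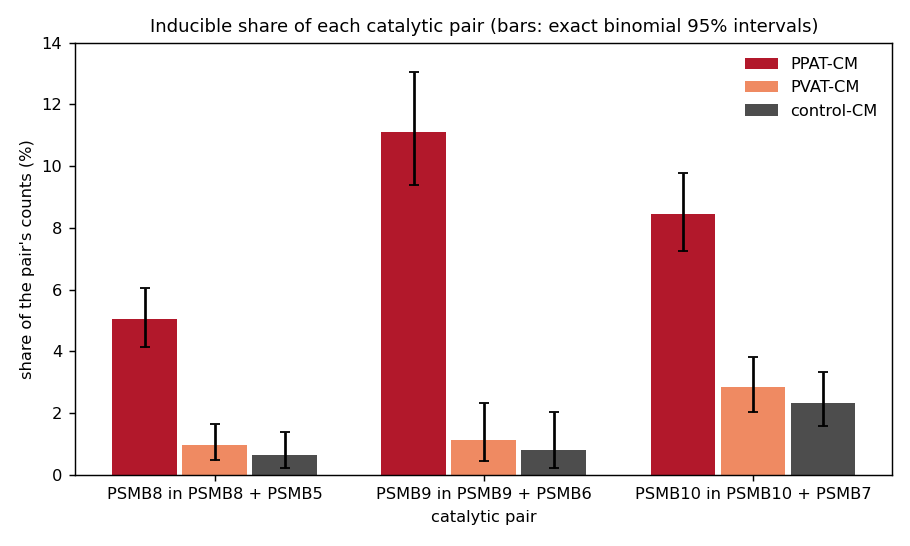
Share of the inducible subunit in the summed counts of each catalytic pair (y axis, percent) in the 3 single libraries, with exact binomial 95% intervals. The PPAT-CM bars stand at 5.04%, 11.1% and 8.44%, and the control-CM bars at 0.638%, 0.803% and 2.33%.

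Most markers of other cell types were at or near 0, but COL1A1, PLIN1 and a few others had counts in the range of the inducible genes or above. The 10 leukocyte markers summed to 35 counts in PPAT-CM, 21 in PVAT-CM and 19 in control-CM, and ITGAM had 21, 0 and 1 of these. PTPRC, CD3E, CD3D and MS4A1 were at 0 in every library. The 5 adipocyte markers summed to 90 counts in PPAT-CM, 27 in PVAT-CM and 13 in control-CM, of which the lipid droplet gene PLIN1 gave 89, 27 and 13. The 6 fibroblast markers summed to 531, 367 and 783 counts in the same order, of which the collagen gene COL1A1 gave 478, 323 and 718, with COL1A2, DCN and PDGFRA at 0. The 4 endothelial markers summed to 35, 16 and 27, with VWF giving 35, 15 and 26 and both CDH5 and KDR at 0. The part of any such cells in the results was not tested.

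The 33 other subunits all had a mean count of at least 50 over the libraries, the minimum used for counts of called genes. PSMB8 and PSMB9 lay just under it, with means of 41.7 and 48.0, so the called counts below cover 36 of the 38 members and 3 of the 5 immunoproteasome members. In PPAT-CM against control-CM, 10 of the 36 were called higher and none lower, where 12.0% of all 12256 genes kept were called higher and 8.71% lower. These were PSMB10 and PSME1 among the immunoproteasome members, and 8 of the 33 other subunits. PSMB10 and PSMA6 reached the mean of 50 only through PPAT-CM, where they were high, so their calls and the median over the members kept support nothing by themselves. The median log2 ratio of the other subunits was 0.25 and that of all genes kept was 0.03. A ratio above 1 was seen in 28 of the 33, against 52.6% of all genes kept, and in 27 to 31 of the 33 over the 5 scalings tried. The immunoproteasome members had a median log2 ratio of 1.14 over the 3 kept and 2.15 over all 5.

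**Figure D4:**
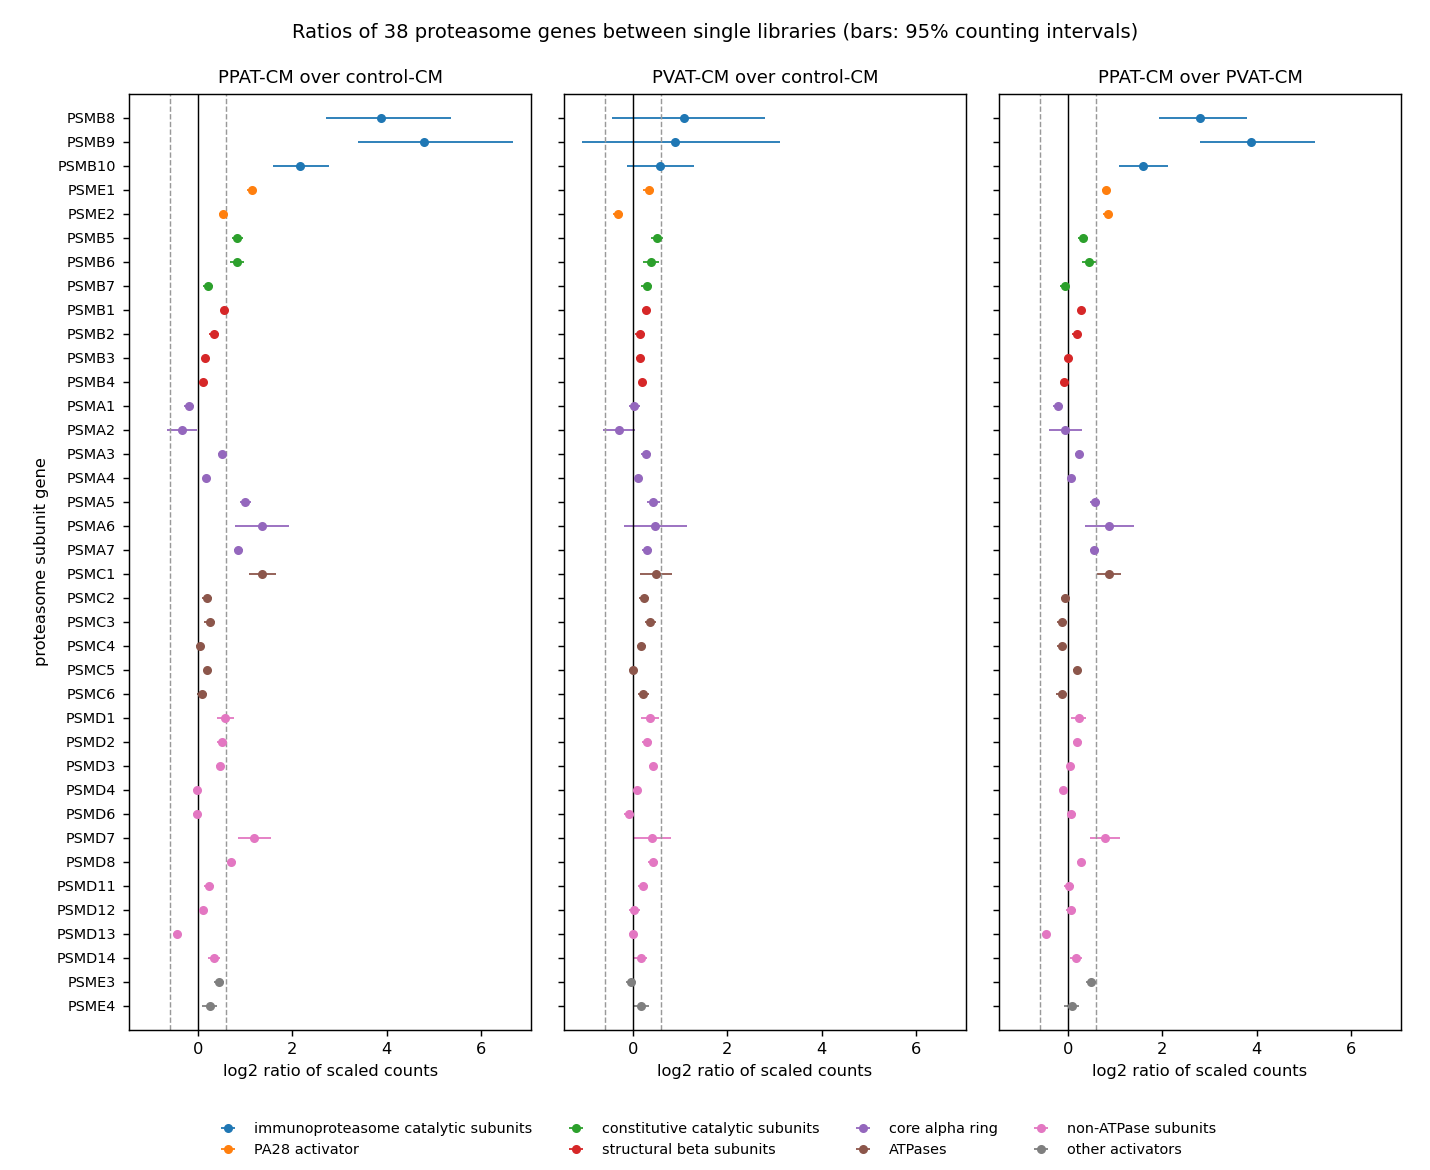
Log2 ratio of scaled counts (x axis) for each of the 38 proteasome genes (y axis, coloured by role) in the 3 comparisons between single libraries, with 95% counting intervals and dashed lines at 1.5-fold. PSMB9, PSMB8 and PSMB10 lie farthest right in the PPAT-CM panels, while most other subunits lie between the dashed lines.

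Within the alpha ring, the outer ring that gates entry to the core, PSMA5, PSMA6 and PSMA7 were called higher. Of all genes kept, 12.0% were called higher in PPAT-CM against control-CM. PSMA5 had 1870 counts in PPAT-CM, 976 in PVAT-CM and 770 in control-CM, a PPAT-CM over control-CM ratio of 2.00 (1.84 to 2.18). PSMA7 had 2981 counts in PPAT-CM, 1568 in PVAT-CM and 1360 in control-CM, a ratio of 1.81 (1.70 to 1.93). PSMA6 had few counts, 111 in PPAT-CM, 47 in PVAT-CM and 36 in control-CM, a ratio of 2.54 (1.73 to 3.81). In these genes the libraries kept one order, with PPAT-CM highest and control-CM lowest. The lowest ratio of the ring was that of PSMA2, 0.791 (0.634 to 0.986), on 163, 131 and 170 counts in PPAT-CM, PVAT-CM and control-CM. PSMA1 also lay under 1, at 0.879 (0.815 to 0.948) on 1421, 1279 and 1333 counts in that order, and its ratio was above 1 with library totals. PSMA3 stood at 1.42 (1.34 to 1.52) and PSMA4, the most counted gene of the ring with 4397 counts in PPAT-CM, 3257 in PVAT-CM and 3206 in control-CM, at 1.13 (1.08 to 1.18). The ring's median log2 ratio was 0.51, with 5 of 7 genes above 0.

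The structural beta subunits carry no active site and were close together. Their ratios of PPAT-CM over control-CM ran from 1.08 (1.04 to 1.12) for PSMB4, with 5327, 4357 and 4070 counts in PPAT-CM, PVAT-CM and control-CM, to 1.47 (1.39 to 1.55) for PSMB1, with 3675, 2347 and 2059. PSMB2 stood at 1.27 (1.18 to 1.36) and PSMB3 at 1.11 (1.06 to 1.18). None of these 4 genes was called. All 4 had ratios above 1 under each of the 5 scalings tried in this comparison.

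Among the ATPases of the regulatory particle 1 of 6 was called higher, against 12.0% of all genes kept. PSMC1 had 405 counts in PPAT-CM, 172 in PVAT-CM and 130 in control-CM, a PPAT-CM over control-CM ratio of 2.57 (2.10 to 3.16). The other 5 lay between 1.03 and 1.19, with PSMC6 at 1.06, PSMC2 at 1.14 and PSMC5 at 1.14, and the highest of them, PSMC3, had 1483 counts in PPAT-CM, 1252 in PVAT-CM and 1031 in control-CM. The lowest was PSMC4, with 2365, 2013 and 1897 counts in PPAT-CM, PVAT-CM and control-CM and an interval that included 1 (0.968 to 1.09). Its log2 ratio of 0.04 turned negative with upper quartile scaling.

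The 11 non-ATPase subunits recognise ubiquitin chains, remove them and hold the regulatory particle together. Of these, PSMD7 and PSMD8 were called higher, against 12.0% of all genes kept. PSMD1 lay just under the threshold with a log2 ratio of 0.58. PSMD8 had 2759 counts in PPAT-CM, 1767 in PVAT-CM and 1398 in control-CM, a PPAT-CM over control-CM ratio of 1.63 (1.53 to 1.74). PSMD7 had 269 counts in PPAT-CM, 121 in PVAT-CM and 97 in control-CM, a ratio of 2.29 (1.81 to 2.92). The lid subunit PSMD13 was the member with the lowest ratio of all 38, with 2176 counts in PPAT-CM, 2320 in PVAT-CM and 2454 in control-CM, a ratio of 0.731 (0.690 to 0.775). It is not called at 1.5-fold, and its PPAT-CM over control-CM ratio lay under 1 in each of the 5 scalings. The ubiquitin receptor PSMD4 stood at 0.986 (0.929 to 1.05) and the lid subunit PSMD6 at 0.988 (0.927 to 1.05), close to 1. The large scaffold subunits PSMD1 and PSMD2 stood higher, PSMD1 at 784 counts in PPAT-CM, 519 in PVAT-CM and 432 in control-CM and PSMD2 with a ratio of 1.42 (1.32 to 1.52). Of the remaining subunits, PSMD3 stood at 1.39 (1.31 to 1.47), PSMD11 at 1.18 (1.10 to 1.27) and PSMD12 at 1.07 (1.00 to 1.15). PSMD14, the enzyme that cuts ubiquitin chains off substrates, had a ratio of 1.26 (1.15 to 1.38).

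The other activators were not called. PSME3, the nuclear relative of PA28, had 2141 counts in PPAT-CM, 1181 in PVAT-CM and 1293 in control-CM, a PPAT-CM over control-CM ratio of 1.37 (1.27 to 1.46). PSME4, which encodes a large single-chain activator, had 828 counts in PPAT-CM, 609 in PVAT-CM and 574 in control-CM, a ratio of 1.19 (1.07 to 1.33). Against PVAT-CM the ratio was 1.41 for PSME3 and 1.05 for PSME4.

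PSMA6, PSMC1 and PSMD7, with the highest ratios among the other subunits, were also thinly counted and shared exons with other annotated genes. Only PSMA2, PSMA6, PSMC1 and PSMD7 among the other subunits had a mean count under 500, and the next subunit had 578. Of the merged exon bases, 75.8% in PSMC1 overlapped NRDE2 on the opposite strand, 34.6% in PSMA2 overlapped other genes including MRPL32, 30.7% in PSMD7 overlapped a transcript on the opposite strand, and 14.1% in PSMA6 overlapped a gene on the same strand. NRDE2 had 222 counts in PPAT-CM, 159 in PVAT-CM and 215 in control-CM. PSMB10 shared 34.8% with a gene on its own strand that had 18 counts in PPAT-CM, 20 in PVAT-CM and 20 in control-CM. PSMB8 shared 20.6% and PSMB9 5.66% with each other or with PSMB8-AS1, an antisense gene with 15, 8 and 4 counts in that order. The strand setting of the counting is not given in the sources used here, and the part of overlapping genes in these ratios was not tested. Without the members that shared at least 10% of their exon bases, 6 genes were called higher in PPAT-CM against control-CM in place of 10. That limit was set after values were seen. Of the other subunits, 5 of 26 under it and 3 of 7 at or above it were called higher, beside 12.0% of all genes kept. Proteasome pseudogenes had 17 counts in PPAT-CM, 11 in PVAT-CM and 11 in control-CM over 44 gene rows.

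Across the 33 other subunits the log2 ratio of PPAT-CM over control-CM was higher in genes with lower mean counts, with a Spearman rho of -0.36. The points share libraries and scaling, and the value is a description. The rho with the percentage of shared exon bases was 0.00. The subunits with at least 10% of shared bases had a median log2 ratio of 0.58 over 7 genes, and the rest 0.25 over 26 genes.

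In PVAT-CM against control-CM none of the 36 members kept was called in either direction, where 3.15% of all genes kept were called higher and 3.49% lower. The other subunits had a median log2 ratio of 0.22, with values from -0.29 for PSMA2 to 0.51 for PSMB5. A ratio above 1 was seen in 30 of the 33, against 53.1% of all genes kept and in 28 to 32 over the 5 scalings. The immunoproteasome members had a median of 0.33 over the 3 kept and 0.57 over all 5. Among the called subunits of the other comparison, PSMA5 had a PVAT-CM over control-CM ratio of 1.35 (1.23 to 1.48), PSMC1 1.41 (1.11 to 1.78) and PSMD8 1.34. Both comparisons use the same control-CM library.

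In PPAT-CM against PVAT-CM, 6 of the 36 members were called higher and none lower, where 8.56% of all genes kept were called higher and 6.07% lower. These were PSMB10, PSME1 and PSME2, which are the immunoproteasome members kept, and 3 of the 33 other subunits. PSMB10 and PSMA6 are again among them through their PPAT-CM counts. These 3 were PSMA6 with a ratio of 1.83 (1.29 to 2.63), PSMC1 with 1.83 (1.52 to 2.20) and PSMD7 with 1.72 (1.39 to 2.15), the genes with few counts and shared exons. Each of the 26 subunits with under 10% of shared bases stayed inside 1.5-fold, as did 4 of the 7 with at least 10%. This split was set after values were seen, and the part of shared exons was not tested. The other subunits had a median log2 ratio of 0.08, with a ratio above 1 in 23 of the 33 against 52.3% of all genes kept and in 20 to 27 over the 5 scalings, and the immunoproteasome members had 0.84 over the 3 kept and 1.58 over all 5. PSMB7 lay at 0.952 (0.887 to 1.02) and PSMD13 at 0.727 (0.686 to 0.771).

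Summed over genes, the 33 other subunits had 3654 scaled CPM in PPAT-CM, 3418 in PVAT-CM and 2997 in control-CM. The 5 immunoproteasome members summed to 359 in PPAT-CM, 195 in PVAT-CM and 193 in control-CM, mostly from PSME1 and PSME2. All 38 genes took 0.435% of the counts in PPAT-CM, 0.363% in PVAT-CM and 0.293% in control-CM. These shares are of unscaled library totals, of which mitochondrial genes took 15.5% in PPAT-CM and 30.8% in control-CM. On such totals the median log2 ratio of all genes kept was 0.27 for PPAT-CM over control-CM.

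Other genes of the pathway were read from 8 lists of 47 genes, of which 44 were kept. In PPAT-CM against control-CM 14 of the 44 were called higher and none lower, against 12.0% and 8.71% of all genes kept. Their median log2 ratio was 0.28 against 0.03 over all genes kept. UBE2L6 is among the 14 only through its PPAT-CM counts, so its call supports nothing by itself. Among 9 assembly chaperones 1 was called, a share near the 12.0% of all genes kept. This was POMP, at 1.86 (1.75 to 1.98), with 3495 counts in PPAT-CM, 1737 in PVAT-CM and 1548 in control-CM. POMP encodes the factor that assists assembly of the core, and it is known to be used with the inducible subunits. The other 8 chaperones had log2 ratios from -0.38 to 0.37. The subunit genes PSMA8 and PSMB11, which are known from testis and thymus, had 0 counts in every library, which allows up to 0.163 scaled CPM in PPAT-CM, 0.210 in PVAT-CM and 0.198 in control-CM (3 counts).

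Of 13 proteins that bind the proteasome or bring substrates to it, 1 was called higher, the shuttle factor RAD23B at 1.54 (1.48 to 1.60), which is not above the 12.0% of all genes kept. Of 6 genes of ubiquitin and its activation, 2 were called higher, against the same 12.0%. These were the ubiquitin genes UBB, with a ratio of 2.04 (1.92 to 2.16), and RPS27A, with 1.67 (1.61 to 1.74). Ubiquitin genes have near-identical copies, so these values are uncertain. Of 6 genes that control proteasome gene expression, 1 was called higher, against 12.0% of all genes kept. This was NFE2L2, the factor of the oxidative stress response, at 2.02 (1.79 to 2.29). NFE2L1, the factor that raises subunit genes when proteasome activity falls, had 3092 counts in PPAT-CM, 2788 in PVAT-CM and 2224 in control-CM, a PPAT-CM over control-CM ratio of 1.15 (1.09 to 1.21) and a PVAT-CM over control-CM ratio of 1.33 (1.26 to 1.41).

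**Figure D5:**
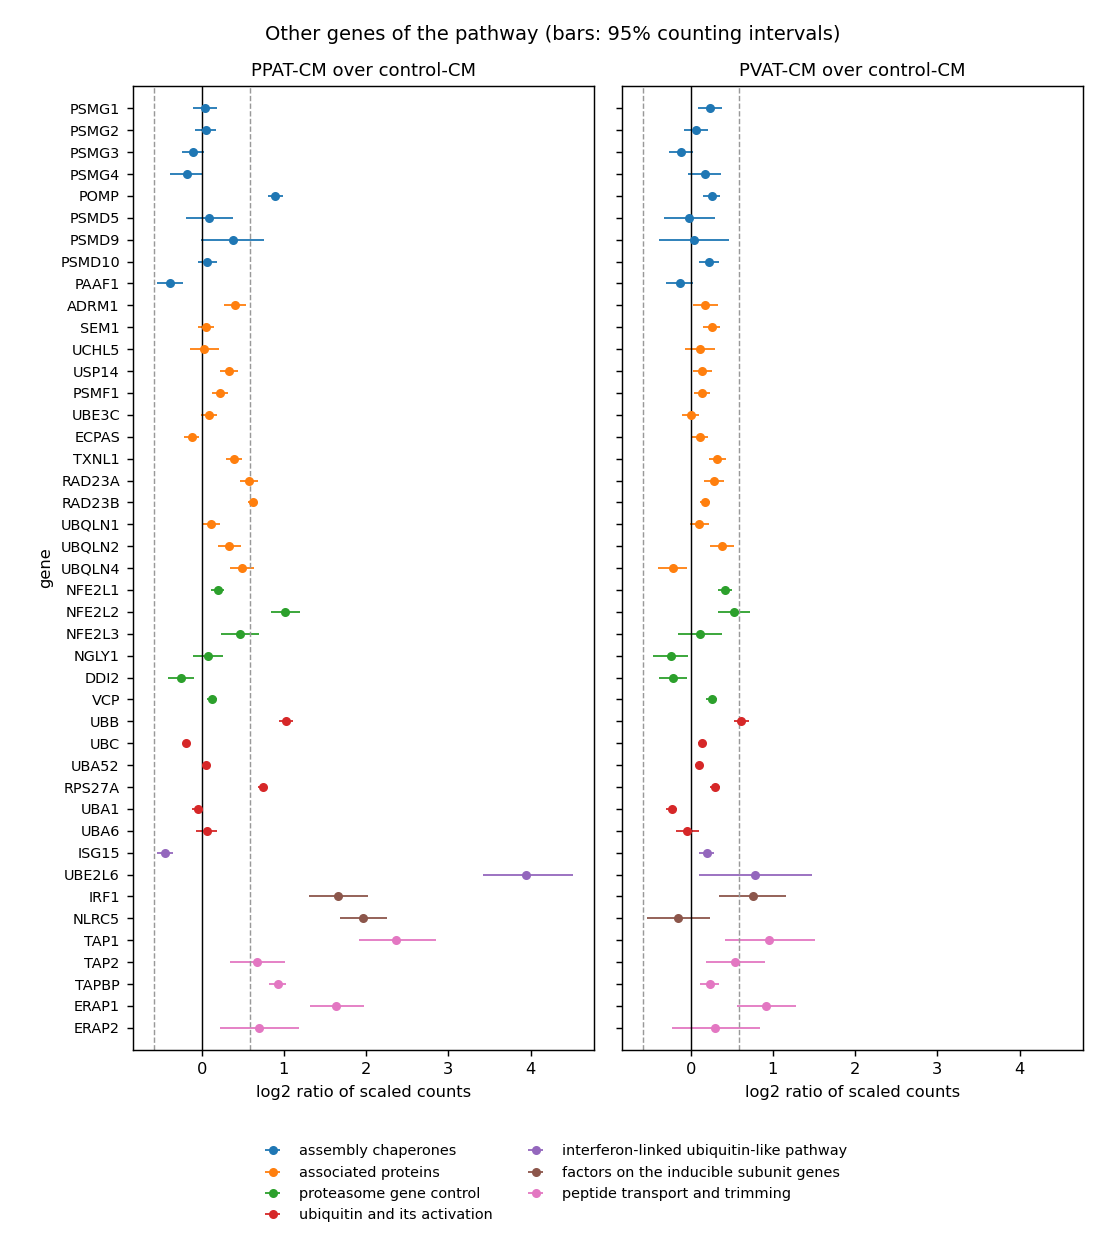
Log2 ratio of scaled counts (x axis) for other pathway genes kept (y axis, coloured by list) in PPAT-CM and in PVAT-CM, each over control-CM, with 95% counting intervals and dashed lines at 1.5-fold. UBE2L6, TAP1, NLRC5, IRF1 and ERAP1 lie farthest right in PPAT-CM, and most assembly chaperones and associated proteins lie near 0.

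NLRC5 and IRF1, factors known to act on the inducible subunit genes, were called higher in PPAT-CM against control-CM, where 12.0% of all genes kept were. These factors were chosen with earlier results of these data known, so their calls support nothing by themselves. NLRC5, a transactivator of class I genes, had 591 counts in PPAT-CM, 106 in PVAT-CM and 125 in control-CM, a ratio of 3.90 (3.21 to 4.77). IRF1, an interferon regulatory factor that binds interferon-stimulated elements, had 320 counts in PPAT-CM, 133 in PVAT-CM and 84 in control-CM, a ratio of 3.14 (2.46 to 4.05). In PVAT-CM against control-CM IRF1 was called, at 1.68 (1.27 to 2.24), and NLRC5 lay at 0.902 (0.690 to 1.18). In that comparison 5 of the 44 pathway genes kept were called higher and none lower, against 3.15% and 3.49% of all genes kept. These were IRF1, TAP1, ERAP1, UBE2L6 and UBB, the last at 1.53 (1.44 to 1.63).

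All 5 genes of peptide transport and trimming were called higher in PPAT-CM against control-CM, where 12.0% of all genes kept were. The list was chosen with earlier results of these data known, so this count supports nothing by itself. TAP1, the head to head neighbour of PSMB9, had 287 counts in PPAT-CM, 84 in PVAT-CM and 46 in control-CM, a ratio of 5.15 (3.76 to 7.19). ERAP1, which trims peptides in the endoplasmic reticulum, had 385 counts in PPAT-CM, 181 in PVAT-CM and 102 in control-CM, a ratio of 3.11 (2.50 to 3.91). The ratio was 1.90 for TAPBP, 1.62 for ERAP2 and 1.60 for TAP2. In PVAT-CM against control-CM TAP1 was called at 1.94 (1.34 to 2.85) and ERAP1 at 1.89 (1.47 to 2.43). TAP1 therefore passed the threshold in PVAT-CM while the interval of PSMB9, with 7 and 4 counts in PVAT-CM and control-CM, was too wide to place it.

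The interferon-linked ubiquitin-like genes did not move together. UBE2L6, the conjugating enzyme for the ubiquitin-like protein ISG15, had 578 counts in PPAT-CM, 50 in PVAT-CM and 31 in control-CM. Its PPAT-CM over control-CM ratio was 15.4 (10.7 to 22.8). Its PVAT-CM over control-CM ratio was 1.72 (1.07 to 2.78), which is called higher. UBE2L6 reached the mean of 50 only through PPAT-CM, where it was high, so its calls support nothing by themselves. ISG15 itself had 1772 counts in PPAT-CM, 2139 in PVAT-CM and 1990 in control-CM, a ratio of 0.735 (0.689 to 0.783) that is not called. Against PVAT-CM the PPAT-CM ratio of ISG15 was 0.642 (0.603 to 0.684), which is called lower. UBD, which encodes an interferon-inducible ubiquitin-like protein that targets proteins to the proteasome, had 1 count in PPAT-CM and 0 in PVAT-CM and control-CM, at or under the floor of 3 counts.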

How the data were processed

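RNA sequencing counts of 3 LNCaP libraries were used, 1 for each medium. The deposited table holds raw whole-number read counts for each Ensembl gene. HISAT2, featureCounts, Trimmomatic, FastQC and edgeR are named in the submitters' processing notes, with GRCh38 as the build. Their versions and options, the strand option included, are not given in the sources used. Libraries were made from mRNA with the KAPA HyperPrep kit, per the labels' protocols. Symbols were found for 58472 of 58884 rows, and 58611 rows matched GENCODE 29.

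Counts were scaled with TMM factors (edgeR 4.0.16, R 4.3.3), which were 1.08 in PPAT-CM, 1.01 in PVAT-CM and 0.917 in control-CM. Genes with a mean count of at least 50 were kept (12256), and the log2 ratio used a pseudocount of 0.5. Intervals are exact conditional binomial 95% intervals (scipy 1.17.1), cover counting error only, and treat reads as independent molecules, which reads without molecular identifiers are not. With 1 library per medium no test was possible. The ratios, calls and intervals were tested on simulated Poisson counts with set folds, using the scaling factors of the real libraries. This did not cover the scaling itself, the pair shares, the motif search or variation between cultures. Every member is accounted for. Those given in full are the immunoproteasome members, their counterparts, other activators, members past 1.5-fold, and the highest and lowest of each role. Members and lists were chosen with earlier results of these data known. The limit of 500 on the mean count and the split at 10% of shared exon bases were set after values were seen. Alternatives were DESeq2 1.42.0 size factors and the others given in the closing section. Protein sequences were not used here, and some genes of the lists are counted but not reported singly here.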

Additional observations from a re-analysis of the deposited data

How the results depend on the processing

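The inducible catalytic genes, and PSMB10 and PSME1 among the genes kept, were higher in PPAT-CM than in both other libraries under every scaling tried. In PPAT-CM against control-CM, the 10 members called higher became 17 with library totals, which raise the median of all genes to 0.27 (log2) and call 24.1% of all genes higher. It was 19, with 2 lower, at a log2 threshold of 0.32 (25.5% of all genes higher) and 6 at 2-fold (3.93%). It was also 6 without members that share exons (12.0% of all genes), a choice made after seeing the data. In PPAT-CM against PVAT-CM, 6 became 10, with 1 lower, at a log2 threshold of 0.32 (20.3%), and 1 at 2-fold (2.45%). It became 3 when means had to reach 200 counts (6.17%) and 2 without members that share exons (8.56%). In PVAT-CM against control-CM, 0 became 4 with library totals (6.67%) and 12 at a log2 threshold of 0.32 (13.6%). It became 2 with a minimum mean of 10 (6.15%) or no filter (19.2%), which admit PSMB8 and PSMB9. Those 2 genes reach a mean of 10 only through PPAT-CM. Their PVAT-CM over control-CM intervals, 0.739 to 6.91 and 0.473 to 8.67, included 1, so these calls support nothing by themselves.

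The median log2 ratio of the immunoproteasome members minus that of the other subunits was 0.89 in PPAT-CM against control-CM, 0.77 in PPAT-CM against PVAT-CM and 0.11 in PVAT-CM against control-CM. With a minimum mean of 10, or no filter, it was 1.90, 1.503 and 0.35 in that order. PSMB8 and PSMB9, which these settings add, reach a mean of 10 only through PPAT-CM, where they were high. These larger values therefore support nothing by themselves. Against PSMB5, PSMB6 and PSMB7 alone the difference was 0.31, 0.52 and -0.052. With a minimum mean of 200, and also without members that share exons, it was 0.58 in PPAT-CM against control-CM and -0.21 in PVAT-CM against control-CM, where PSME1 and PSME2 alone remain. By means it was -0.025 in PVAT-CM against control-CM. The sign of that comparison thus depends on the members kept and on the summary. Per kilobase of exons the PPAT-CM share was 3.03% for PSMB8, 5.57% for PSMB9 and 8.17% for PSMB10. Between scalings 9 member ratios changed sign with library totals, 6 with upper quartile factors, 1 with TMM without mitochondrial genes and 0 with DESeq2 size factors. No paired analysis was possible because each medium had 1 library. The depth limits PSMB8 and PSMB9 most, with at most 12 counts in PVAT-CM and control-CM.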

Other observations

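Genes beside the inducible genes on their chromosomes did not all move with them. Within 50000 bases of PSMB10, the potassium chloride cotransporter gene SLC12A4 had 90 counts in PPAT-CM, 33 in PVAT-CM and 29 in control-CM, a log2 ratio of 1.34 for PPAT-CM over control-CM. The kinase gene PSKH1 had 760, 386 and 346 counts in that order, a log2 ratio of 0.86. EDC4, a decapping factor gene, had 422, 316 and 320, a log2 ratio of 0.12. SLC12A4 reached the minimum mean count of the genes kept only through PPAT-CM, where it was high, so its ratio supports nothing by itself. Around PSME1 and PSME2, the mitochondrial enzyme gene PCK2 had 3923 counts in PPAT-CM, 4500 in PVAT-CM and 2702 in control-CM, so that it was highest in PVAT-CM. REC8, a cohesin subunit gene of meiosis, had 110, 55 and 56 counts in that order, a log2 ratio of 0.69 for PPAT-CM over control-CM that is past 1.5-fold, and DCAF11 had 1149, 715 and 745, a log2 ratio of 0.35. EMC9 had 591, 483 and 607 counts in the order PPAT-CM, PVAT-CM and control-CM, and NRL had 85, 111 and 133, log2 ratios of -0.32 and -0.92 for PPAT-CM over control-CM. Near PSMB8 and PSMB9 the genes kept were TAP1 and TAP2, with log2 ratios of 2.35 and 0.68. These neighbours were chosen by distance after the member values were known.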
